A study of Mus musculus with 3 samples.

Results

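The regions described here are the 560 peaks with the highest score, 150, in the biological replicate 1 list of a DNase-seq study of MEL cells, on chromosomes 1 to 19. They were 560 of 269399 distinct replicate 1 peaks on these chromosomes, or 0.208%. MEL is an immortalized mouse erythroleukemia line, blocked early in the red cell lineage, which stands in for an immature erythroid cell in many studies. All libraries were of untreated MEL cells in 1 condition, as far as the labels go, so no group was set against another. Biological replicate 1 had 2 libraries, which were merged into 1 alignment before peaks were called. Biological replicate 2 had 1 library with its own list of peaks.

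DNase I cuts DNA where it is not wrapped in nucleosomes or otherwise covered, and the sites that are cut most are promoters, enhancers and other regulatory elements. At a promoter, general factors bind short words close to the start: SP and KLF factors bind GC boxes, ETS factors bind GGAA cores, and the trimer NF-Y binds CCAAT boxes. Far from starts, blood cell enhancers are bound by GATA factors, RUNX1 and the ETS factor PU.1. CTCF binds insulators and loop anchors.

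The members were chosen by their replicate 1 score, the authors' value for each peak. It was a whole number from 1 to 150 and did not exceed the width of the peak, which was 150 bp for every member. What it counts is not given in the sources used here. Peaks became fewer towards the top score: just inside the rule were the 560 peaks at 150, and just outside were 992 peaks 1 point below. Classes of score under 150 are given here as under 100, 100 to under 140, and 6 to 10, 2 to 5 and 1 point below the top, with 1 to 5 points below as the class nearest to the members. The score itself is therefore given as a description, and the replicate 2 score, which the rule did not use, serves as the other measurement. No test between samples could be run on a single list for each replicate, so shares are given with Wilson 95% intervals, which cover counting error over peaks only. The read depth behind both lists is unknown.

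The sequences below are the plus strand of the reference (RefSeq GRCm38.p6, the same build as mm10), 5′ to 3′, 150 bases each. Capitals mark 3 words on either strand. The NF-Y word is CCAAT, which reads ATTGG on the other strand. The GATA word is AGATAA, or TTATCT on the other strand. The RUNX word is TGTGGT, or ACCACA on the other strand. The first 3 are among the promoter members with the highest replicate 2 scores. They lay 393 bp and 993 bp upstream of a start of Zfp687, a zinc finger protein gene, at chr3:95015556-95015705 and chr3:95016156-95016305, and 200 bp upstream of Ciart, a repressor of the circadian clock, at chr3:95882356-95882505.
Zfp687 promoter, near: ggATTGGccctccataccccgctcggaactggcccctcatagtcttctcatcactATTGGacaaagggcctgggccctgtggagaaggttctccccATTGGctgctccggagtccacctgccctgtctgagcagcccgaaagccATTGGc
Zfp687 promoter, upstream: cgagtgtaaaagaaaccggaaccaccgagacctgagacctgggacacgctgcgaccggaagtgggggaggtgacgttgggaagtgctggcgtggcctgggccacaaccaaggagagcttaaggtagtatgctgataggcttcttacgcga
Ciart promoter: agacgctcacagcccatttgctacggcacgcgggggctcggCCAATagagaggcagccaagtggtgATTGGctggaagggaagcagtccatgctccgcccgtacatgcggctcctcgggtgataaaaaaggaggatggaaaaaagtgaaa

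The next pair are among the members over 10 kb from any protein-coding start with the highest replicate 2 scores. They were nearest to Jak2, the kinase of the erythropoietin receptor (chr19:29241656-29241805), and to A530016L24Rik (chr12:112464156-112464305).
Jak2 upstream: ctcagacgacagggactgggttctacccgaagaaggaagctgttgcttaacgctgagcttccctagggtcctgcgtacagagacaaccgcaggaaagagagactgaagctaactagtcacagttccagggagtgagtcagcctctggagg
A530016L24Rik upstream: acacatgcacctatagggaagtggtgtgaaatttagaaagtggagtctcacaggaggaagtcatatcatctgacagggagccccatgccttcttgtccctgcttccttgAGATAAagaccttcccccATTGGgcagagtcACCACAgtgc

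Of the next 4, the first lies inside exon 4 of Spi1 (chr2:91114256-91114405), the gene of PU.1. The members upstream of Kit (chr5:75460616-75460765), Meis1 (chr11:19155776-19155925) and Myb (chr10:21221396-21221545) were picked for printing after their values were seen, because these are genes of blood progenitors.
Spi1 exon 4: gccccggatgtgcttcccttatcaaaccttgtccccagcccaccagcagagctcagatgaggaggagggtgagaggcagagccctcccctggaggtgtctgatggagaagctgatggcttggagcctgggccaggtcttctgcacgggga
Kit upstream: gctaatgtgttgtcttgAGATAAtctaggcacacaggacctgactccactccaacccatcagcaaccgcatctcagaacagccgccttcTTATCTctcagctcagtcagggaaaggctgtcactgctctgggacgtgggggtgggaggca
Meis1 upstream: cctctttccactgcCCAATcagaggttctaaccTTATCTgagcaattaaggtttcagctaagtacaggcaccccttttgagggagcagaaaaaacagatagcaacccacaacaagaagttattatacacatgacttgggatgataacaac
Myb upstream: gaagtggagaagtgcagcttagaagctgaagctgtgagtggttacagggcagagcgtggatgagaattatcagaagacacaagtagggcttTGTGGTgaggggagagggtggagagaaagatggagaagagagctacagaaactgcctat

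The last pair had no overlapping peak in the replicate 2 list. They lay near Ccr1, a chemokine receptor gene (chr9:123928436-123928585) and Fcgr1, an Fc receptor gene (chr3:96328896-96329045).
Ccr1, 40 kb: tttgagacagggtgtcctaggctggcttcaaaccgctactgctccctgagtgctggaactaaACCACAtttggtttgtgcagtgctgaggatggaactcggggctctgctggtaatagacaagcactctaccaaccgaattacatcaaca
Fcgr1 upstream: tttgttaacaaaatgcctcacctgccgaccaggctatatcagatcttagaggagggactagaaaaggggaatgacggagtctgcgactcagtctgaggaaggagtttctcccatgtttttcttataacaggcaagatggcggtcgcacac

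Members lay mostly at promoters. A peak was called a promoter peak when its centre lay no more than 1000 bp from where a protein-coding transcript begins in the GENCODE M21 basic annotation. By this rule 323 of 560 members, 57.7% (53.5 to 61.7%), were promoter peaks, against 12.4% of all replicate 1 peaks on chromosomes 1 to 19. Another 89 members, 15.9%, lay between 1 and 10 kb from a start, against 27.3% of all peaks. The remaining 148, 26.4% (22.9 to 30.2%), lay over 10 kb away, against 60.3% of all peaks. Outside promoters, 125 members (22.3%) were intergenic, 100 (17.9%) had their centre in an intron and 12 (2.14%) in an exon. The same shares over all peaks were 44.5%, 40% and 3.11%.

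The promoter share was higher in each higher class of score. It was 6.24% for scores under 100, 22.9% for 100 to under 140, 39.4% at 6 to 10 points below the top, 42.8% at 2 to 5 points below and 48.1% (45 to 51.2%) at 1 point below. The share among members lay above that at 1 point below, and their intervals did not overlap. The share over 10 kb ran the other way, at 65.9%, 49.8%, 38.5%, 37.8% and 34.6% for the same 5 classes. Very distant members remained: 4.82% of members lay over 100 kb from any start, against 4.98% of peaks 1 to 5 points below the top and 14% of all peaks.

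**Figure D1:**
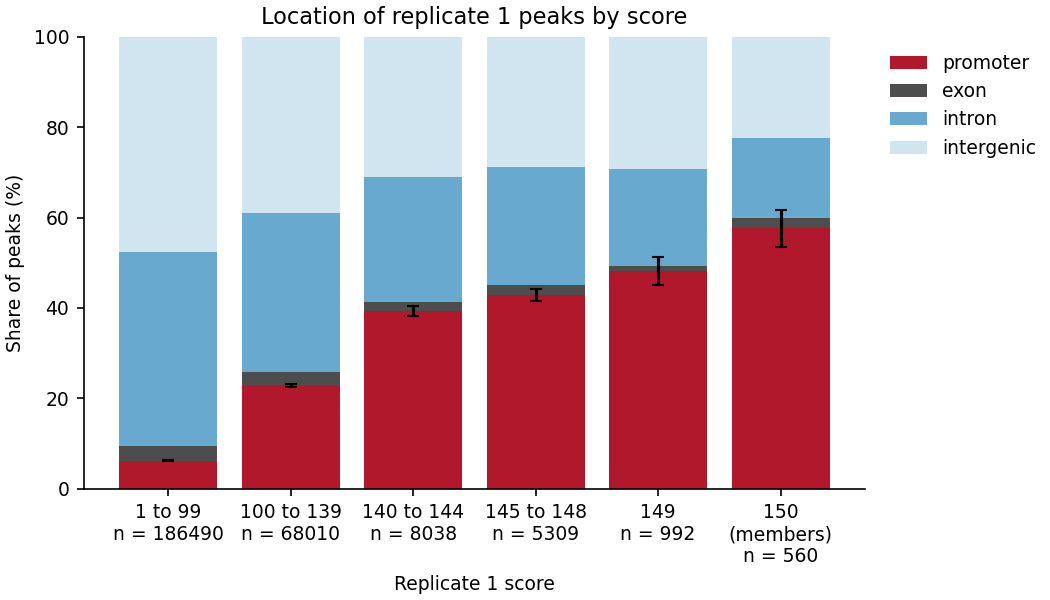
Stacked bars give the share of replicate 1 peaks of chromosomes 1 to 19 (vertical axis, %) in promoters, exons, introns and intergenic sequence for 6 classes of score (horizontal axis). Error bars are Wilson 95% intervals on the promoter share, which goes up with each class and reaches 57.7% among the 560 members.

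Replicate 2 held a peak at nearly all of these positions. Of 560 members, 550, or 98.2% (96.7 to 99%), were overlapped by at least 1 bp by a replicate 2 peak, against 30.3% of all replicate 1 peaks. This share did not separate members from the classes just below: it was 98.8% (98.5 to 99%) at 1 to 5 points below. The replicate 2 score was higher by median in members, though its values overlapped with those of the class just below. Its median was 102 (95% interval of the median 101 to 104) over members. In the classes below it was 16 for scores under 100, 34 for 100 to under 140, 64 at 6 to 10 points below, 79 at 2 to 5 points below and 93 (92 to 94) at 1 point below. Members ran from 64 to 147 in replicate 2, with quartiles of 94 and 111, while peaks 1 point below ran from 47 to 133, with quartiles of 85 and 101.

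Members were also near the top of the replicate 2 list when that list was ranked by itself. Of the 550 overlapped members, 304 (55.3%, 51.1 to 59.4%) fell in the highest 1% of replicate 2 scores and 546 (99.3%) in the highest 10%. The reverse share was lower. The 611 replicate 2 peaks with a score of at least 104, that of the 560th highest peak with all its ties, were overlapped by a member in 253 cases (41.4%). Of those 611, 604 were overlapped by a replicate 1 peak of some score. The median replicate 1 score over them was 1 point below the top, and the lowest was 143. The centres of a member and its replicate 2 peak were a median of 20 bp apart, and 166 members (30.2% of those overlapped) had the same centre in both lists.

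**Figure D2:**
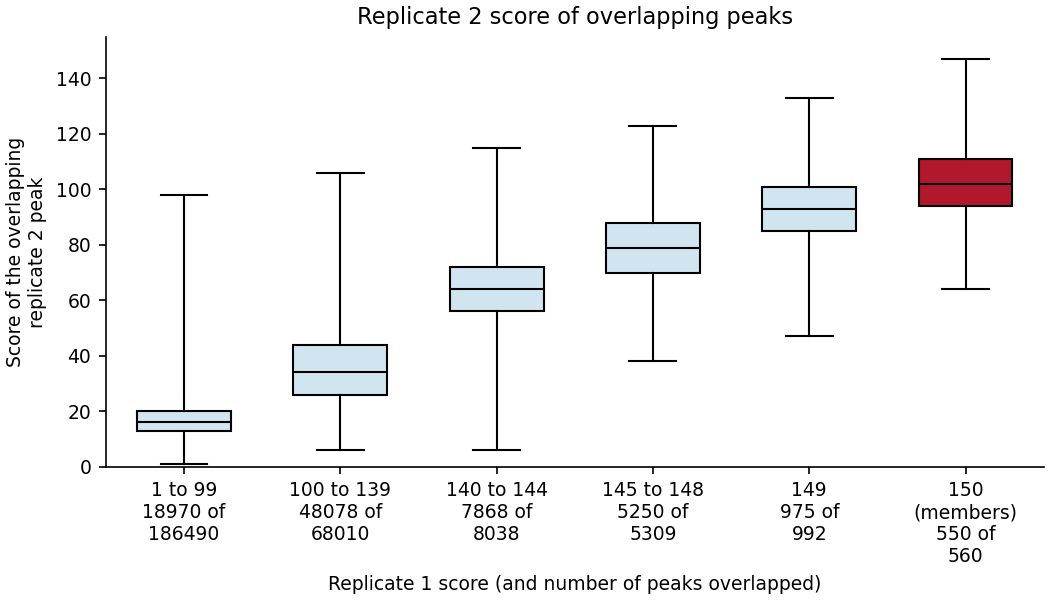
Boxes give the median and quartiles, and whiskers the full range, of the score of the overlapping replicate 2 peak (vertical axis) for 6 classes of replicate 1 score (horizontal axis, with the number of peaks overlapped). The medians climb from 16 to 102, and no overlapped member had a replicate 2 score under 64.

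Replicate 2 scores were high at all distances from genes, and lowest by median in members over 10 kb away. The median was 103 (102 to 105) for promoter members, 102 (96 to 106) for members at 1 to 10 kb and 99 (95 to 102) for members over 10 kb away. The lowest values were 64, 75 and 69, in the same order. The 3 intervals of the median overlapped.

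The members with the highest replicate 2 scores were a mixed set by location. The highest, 147, was an intergenic member 4951 bp upstream of Pdzd8, whose product acts at contact sites of the endoplasmic reticulum (chr19:59350656-59350805). The member in exon 4 of Spi1 had 137. Scores of 135 were reached at Ciart, at the near Zfp687 member and in exon 3 of Spi1. Promoters filled most of the places after these. The shared promoter of Hist2h2be and Hist2h2ac, core histone genes, and the upstream Zfp687 member each had 134. The promoter of Anp32e, a histone chaperone, had 132. Values of 131 were reached at promoters such as those of Abcf2, Ensa and Hist2h2bb and at the member 10.1 kb upstream of Jak2. Golph3l and Sp1, itself the gene of a GC box factor, had 129. Grk4, the intronic member 1926 bp into Aida, and Gm16253 had 128. Shc1, an adaptor of receptor tyrosine kinases, and Dnm2, the dynamin of endocytosis, had 127.

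Promoter members sat just upstream of the start rather than around it. The median position was 100 bp upstream (quartiles −163 and −25.5 bp), against −1 bp (−223.75 and 487 bp) for other promoter peaks. Of 323 promoter members 263, 81.4% (76.8 to 85.3%), were centred upstream, against 50.1% of the 33154 other promoter peaks. The difference was one of degree from the class below, since 75.7% (74 to 77.2%) of promoter peaks 1 to 5 points below were upstream, with a median of −63 bp. Starts on both strands lay within 1000 bp of 53 promoter members, 16.4% (12.8 to 20.8%), against 15% at 1 to 5 points below and 8.69% of other promoter peaks.

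**Figure D3:**
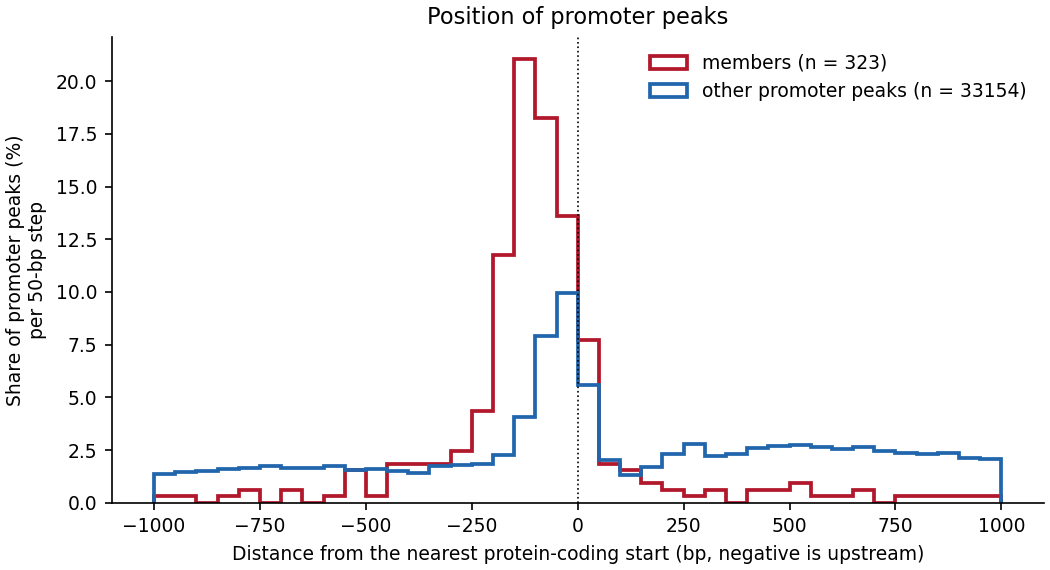
The lines give the share of promoter peaks (vertical axis, % per 50-bp step) by signed distance from the nearest protein-coding start (horizontal axis, bp). The 323 promoter members pile up between 200 bp upstream and the start, while the 33154 other promoter peaks spread over the whole window and into the transcribed side.

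The CCAAT box was the most frequent of the words searched in promoter members. It was also the shortest word, and short words match more often by chance, so each word is read against its own share in other peaks. It was present on either strand in 192 of 323 promoter members, 59.4% (54 to 64.7%), against 19.8% of other promoter peaks. Its share went up with the score, with 15.9% under 100, 16.1% from 100 to under 140, 30.3% at 6 to 10 points below, 42.9% at 2 to 5 points below and 58.5% (54 to 62.8%) at 1 point below. The share among members lay within the interval at 1 point below. The pattern was also present in the replicate 2 list, whose scores the rule did not use: 15.2%, 16.7%, 21%, 32.1%, 49.6% and 66.8% of promoter peaks held CCAAT at scores of 1 to 19, 20 to 39, 40 to 59, 60 to 79, 80 to 99 and 100 or more. The lists share many positions, so these are the same promoters ranked by another library.

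Several boxes in 1 promoter were common. At least 2 CCAAT matches were present in 110 promoter members (34.1%), against 4.21% of other promoter peaks and 20.9% of those 1 to 5 points below. At least 3 were present in 41 members, and the near Zfp687 member printed above shows 4. The 357 matches had a median position 109 bp upstream of the start (quartiles −174 and −57 bp), and 49% of them read CCAAT on the strand of the gene.

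The shares close to the start were also compared. Among peaks centred from 250 bp before to 50 bp after a start, a comparison added after the data were seen, CCAAT was present in 64.1% (58 to 69.8%) of 248 members, against 27.7% of 10495 other peaks. The classes nearest below held it nearly as often or less, in 50.2% at 1 to 5 points below and 62.6% (57.5 to 67.4%) at 1 point below, so members did not differ from peaks 1 point below beyond the intervals. The median GC content there was 56.7% in members and 62.7% in other peaks, and its part in the difference was not tested.

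Other promoter words did not follow the score in this way. The GC box GGGCGG was present in 36.8% (31.8 to 42.2%) of promoter members, against 43.5% at 1 to 5 points below and 26.4% of other promoter peaks below 150. The ETS word CCGGAAG was present in 9.29% (6.58 to 12.9%), against 14.9% at 1 to 5 points below and 6.53% below 150. Both words were most frequent at intermediate scores in both lists. In replicate 2 promoter peaks the ETS word reached 17.3% at 60 to 79 and was present in 8.87% at 100 or more. The E-box word CACGTG was present in 2.48% (1.26 to 4.81%) of promoter members. At 1 to 5 points below it was present in 6.25% (5.41 to 7.22%), and below 150 in 4.53%. In replicate 2 promoter peaks at 100 or more it was present in 5.66% (3.99 to 7.97%). The CRE TGACGTCA and the consensus of NRF1 were absent from all 323 promoter members. That allows shares of up to 0.929% each, or 1.18% by the Wilson interval. The shares in other promoter peaks, 1.08% and 0.416%, both lay inside the Wilson limit. At 1 to 5 points below the CRE was present in 1.82% of promoter peaks and the NRF1 consensus in 0.0727%. The CTCF consensus was absent from all 560 members (a share of up to 0.536%), against 1.88% of all other peaks. It was also rare in the class nearest to the members, at 0.19% of peaks 1 to 5 points below, a share inside the limit for members.

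**Figure D4:**
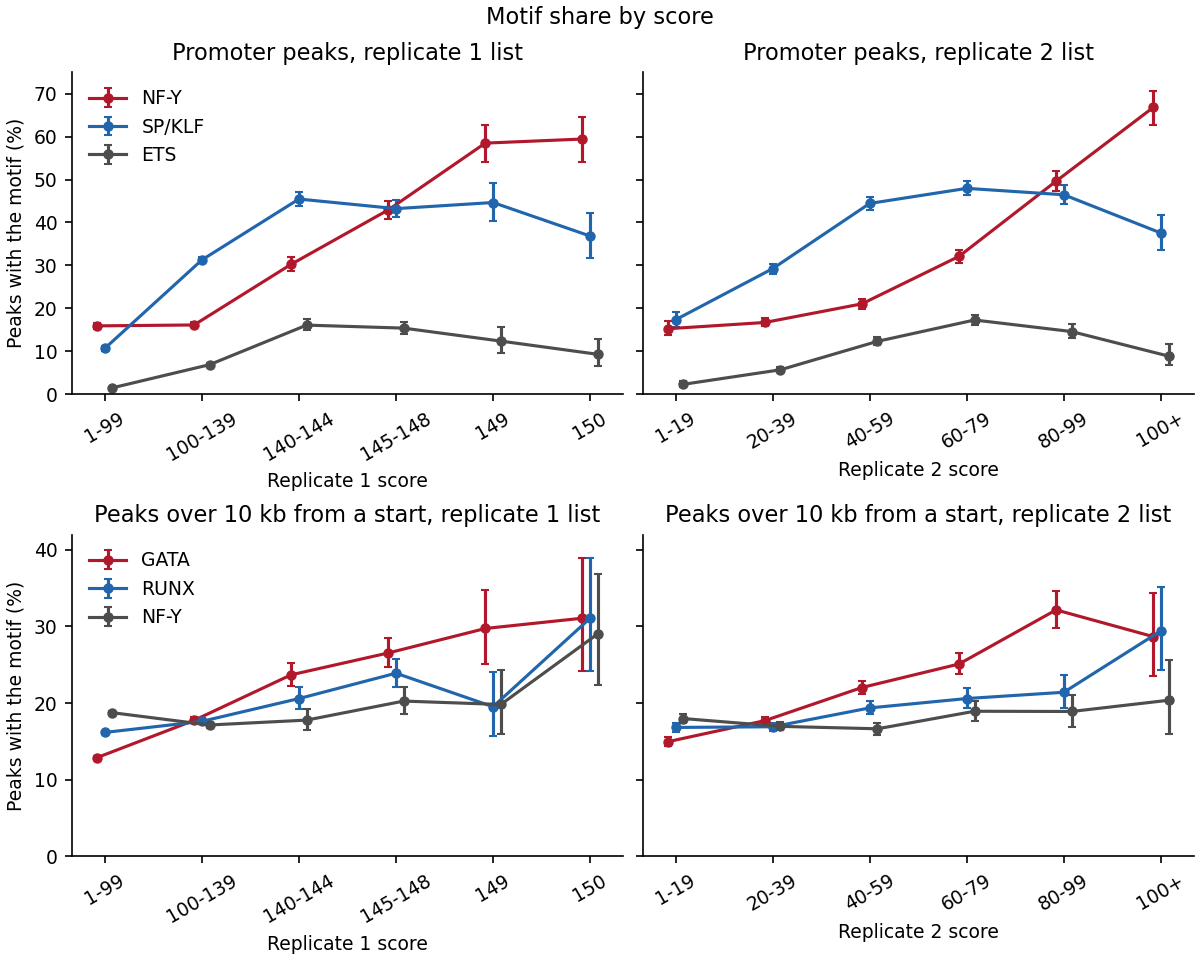
Points give the share of peaks with a motif word (vertical axis, %) by score (horizontal axis) for promoter peaks, upper row, and peaks over 10 kb from a protein-coding start, lower row, in the replicate 1 list, left, and the replicate 2 list, right, with Wilson 95% intervals. The NF-Y word CCAAT goes up with score at promoters in both lists, to 59.4% and 66.8%, while the ETS word peaks at intermediate scores.

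At 373 protein-coding genes a member lay within 1000 bp of a start, which is 3.03% of the 12317 genes with any replicate 1 promoter peak on these chromosomes. Genes can share a member, and 7 genes had more than 1 promoter member. The genes were described by 25 lists of gene families, pathways and cell types, each read against this background of 3.03%.

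Histone genes had the highest share of genes with a member. A member lay at 13 of the 70 histone genes with a promoter peak, 18.6% (11.2 to 29.2%), where 3.03% would give 2.12 genes. These 13 genes shared 10 members, because many histone genes lie head to head. Hist2h2ac and Hist2h2be shared the member with a replicate 2 score of 134, Hist2h2bb and Hist2h3b one with 131, and Hist2h4 had one with 118. H2afv, a gene of the variant H2A.Z, had 111. The Hist1 members on chromosome 13 had scores of 89 to 103. Of the 13 genes 7 lay outside the dense stretches of chromosomes 3, 12 and 19 described below.

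DNA repair genes had a promoter peak 1 to 5 points below the top at 13 of 30 (43.3%), also above the 23.5% of all genes. A member lay at 5 of the 30 repair genes, 16.7% (7.34 to 33.6%), where 3.03% would give 0.91 genes. They were Mre11a, of the complex that processes double-strand breaks, which had the highest replicate 2 score of the 5, the checkpoint kinase gene Chek2 (105), the single-strand break repair gene Xrcc1 (102), the mismatch repair gene Pms2 (98) and Rpa2, a subunit of the single-strand DNA binding protein (93). Chaperones had a member at 5 of 67 genes, led by Hspa5, the chaperone BiP of the endoplasmic reticulum (116), Hsph1 (109), Hspa13 (102) and Dnajc16 (99). RNA polymerase and Mediator subunits had one at 4 of 55: Polr3gl (124), Med29 (100), Polr1d (93) and Med17 (87).

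Splicing and RNA binding genes had a member at 5 of 110, among them Rbm8a of the exon junction complex (114), Hnrnpc (104), Sf3b4 (103) and Hnrnpl (99). Oxidative phosphorylation genes had one at 4 of 95: Atp5g1 (119), Atp5f1 (83), and Cox14 and Ndufs8, with scores between those. Cell cycle genes had one at 2 of 37, the inhibitor gene Cdkn2d (122) and the D-type cyclin gene Ccnd3 (110). Ubiquitin enzymes had one at 4 of 132 (Fbxo48 102, Usp5 101, Usp1 98 and Fbxo15 92 in replicate 2), and small GTPases and traffic genes at 3 of 125 (Rab40c 117, Rab5c 115 and Arf2 109). These shares, from 2.4% to 7.46% with chaperones and polymerase included, had intervals that took in 3.03%, except that of chaperones, which began at 3.23%. Of the 67 chaperone genes 27 (40.3%) had a promoter peak 1 to 5 points below the top.

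Other large families were at or below the background. Zinc finger genes had a member at 8 of 332, among them Zfp687 (135), Zfp317 (122), Zfp386 (119) and Zbtb3 (111). Solute carriers had one at 3 of 224: Slc25a44 (123), Slc17a5 (64) and, between them, Slc25a28. Ribosomal protein genes had one at 2 of 78, Rpl27 (111) and Rpl22 (94). Mitochondrial ribosomal proteins had none of 78, proteasome subunits none of 40 and translation initiation factors none of 50. The background would give 2.36, 1.21 and 1.51 genes there. These same families did have promoter peaks 1 to 5 points below the top, at 24, 16 and 20 genes, 30.8%, 40% and 40% of those with a promoter peak, against 23.5% of all genes.

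Promoter members at genes that define red cells were too few to set apart from the background. Of 19 erythroid factor genes with a promoter peak none had a member there, where 3.03% would give 0.575 genes, and 7 had a promoter peak 1 to 5 points below. None of 6 globin genes had a promoter member, where 0.182 would be given, nor a promoter peak 1 to 5 points below. In the heme and iron list the single gene was Ppox, a late enzyme of heme synthesis (105 in replicate 2), and in the red cell membrane list it was Add1, the adducin of the membrane skeleton (83). In the myeloid list Cd68 (109) and Fcgr1 (104) had one, of 17 genes with a promoter peak. The lymphoid (13 genes with a promoter peak), stem and progenitor (12), megakaryocyte (11), immediate early (20) and unrelated tissue (10) lists had no promoter member, where the background would give from 0.303 to 0.606 genes each.

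Some blood cell genes were nearest to members outside promoters. Of all 20780 protein-coding genes on these chromosomes, 214 (1.03%) were nearest to such a member. The counts were 4 of 19 in the erythroid factor list, 4 of 20 in the stem and progenitor list, 3 of 20 in the immediate early list, 2 of 21 in the myeloid list, 1 of 18 in the heme and iron list and 1 of 16 in the megakaryocyte list. The lymphoid, globin and red cell membrane lists had none. Nearest-gene assignments say only which start is closest, and genes far from their neighbours are nearest to more sequence, which was not corrected for. In the erythroid list the genes were Cbfa2t3, a corepressor of the erythroid GATA1 and TAL1 complex, with a member 1742 bp upstream and a replicate 2 score of 126; Nfe2, a globin gene activator (3052 bp upstream, 83); Mafk, its partner (6837 bp, 96, in exon 8 of Tmem184a); and Myb (60.5 kb upstream, 106). In the heme list it was Abcb10, a mitochondrial transporter needed for heme synthesis (5769 bp upstream, 117). In the stem and progenitor list they were Kit, the stem cell factor receptor gene (114 kb upstream, 109), Meis1 (137 kb upstream, 94), Myc (234 kb downstream of the start, 100) and Runx1. Runx1 had intronic members at 24.4 kb and 3858 bp from the nearest start, with replicate 2 scores of 97 and 91.

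Further genes on the lists stood beside single members. Fli1, a megakaryocyte ETS factor gene, had an intronic member at 20.1 kb (83). Ier5 (60.2 kb, 92) and Nr4a1 (7838 bp upstream, 109) were the immediate early genes besides Myc, and Cdh1, an epithelial cadherin gene, was the only gene of the unrelated tissue list (intron, 30.6 kb, 87). Enhancers upstream of Kit and Myb and within Runx1 have been described in mouse blood cells. Whether the members match them was not tested.

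The 148 members over 10 kb from a start were described further by repeats, uniqueness and annotation. Their median distance was 36 kb, 27 lay over 100 kb and 12 over 200 kb away. They lay inside a protein-coding gene in 66 cases and outside in 82. A start of another annotated type lay within 1000 bp of 14 of the distant members (9.46%), 6 of these being lincRNA starts. This share is not given here for other distant peaks, so it cannot be called particular to members. Besides the members near Jak2 (131) and A530016L24Rik (126), high replicate 2 scores were found in an intron of Slc7a1, a cationic amino acid transporter gene (124), in an intron of Sema4b (122), 39.1 kb upstream of Fcgr1 (121), 81.8 kb upstream of Ywhaz (120), 46.5 kb upstream of Clint1 (119) and 146 kb upstream of Gpc5 (118). A score of 116 was shared by members near Zbtb20, Angpt1, Inf2, Pced1b, Smchd1, Scd3 and Adamtsl4.

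The 5 farthest members were also overlapped in replicate 2, with the scores given here. They lay 516 kb from Got2 (98), 420 kb from Zfp462 (88), 255 kb from Hs6st1 (102), 248 kb from Rplp1 (83) and 245 kb from Angpt1 (95). All 5 values lay within the range of promoter members. The Got2 member lay 1009 bp from the start of a lincRNA, Gm32122, and the Angpt1 member lay in an intron of that gene.

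Most members were free of repeated sequence, as were most peaks just below them in score. The share of 36-bp words that occur once in the reference was used to show where reads could be placed. No member had under 50% unique words, which allows a share of up to 0.536%, against 1.43% of all peaks and none at 1 to 5 points below. The lowest were members near Zdhhc25 (73.9%), in Aida (80%) and near Jmy and Zfp960 (80.9% each), and 544 members (97.1%) were fully unique, against 97.4% at 1 to 5 points below and 85.1% of all peaks. Of the 148 distant members 135 (91.2%) were fully unique, fewer than the 96% of distant peaks at 1 to 5 points below and more than the 83.5% of all distant peaks. Repeat-masked bases were absent from 70.4% of members, against 62.8% of peaks at 1 to 5 points below and 42.2% of all peaks. Among distant peaks they were absent from 60.8% of members, against 55% at 1 to 5 points below and 39.5% of all. Over 50% of the bases were masked in 9 distant members. No member matched the mitochondrial genome at 80% identity over at least 50 bp. Lists of problem regions of the genome were not used here.

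Members stood in wide regions of cutting. The median width of the replicate 1 hotspot around a member was 2309 bp, against 1940 bp at 1 to 5 points below and 414 bp over all peaks. Every hotspot that held a member had the highest −log10 q-value in the deposited file, 100, as did every one at 1 to 5 points below. So did those of 99.7% of peaks scoring 100 to under 140 and of 63.4% of all peaks. These hotspots and the score that chose the members both came from replicate 1, so they are not separate measurements.

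GATA and RUNX words were frequent in distant members. Motif shares were planned for promoter members only, so those of distant peaks are an addition to the plan. AGATAA, the GATA word, was present in 46 of 148, 31.1% (24.2 to 38.9%), against 27% at 1 to 5 points below and 14.3% of other peaks over 10 kb away. TGTGGT, the RUNX word, which was added after the data were seen, was also present in 46, 31.1%, against 23.3% at 1 to 5 points below and 16.7% of other distant peaks. Both words were present in 13 members. CCAAT was present in 29.1% (22.3 to 36.8%), against 20.2% at 1 to 5 points below and 18.4% of other distant peaks. Any of these 3 words was present in 108 distant members, 73%, against 42.1% of all distant peaks. This joint share is not given here for peaks 1 to 5 points below, where each word alone came closer to the members.

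In the replicate 1 list below the members, the GATA share of distant peaks went up with each class to 29.7% at 1 point below. The RUNX share did not: it was 23.9% at 2 to 5 points below and 19.5% (15.7 to 24.1%) at 1 point below. In replicate 2 the GATA share was highest in the class next to the top, and the RUNX share in the top class. At scores of 1 to 19, 20 to 39, 40 to 59, 60 to 79, 80 to 99 and 100 or more the GATA word was present in 15%, 17.7%, 22%, 25.1%, 32.2% and 28.7%, and the RUNX word in 16.8%, 16.9%, 19.4%, 20.6%, 21.4% and 29.4%. CCAAT stayed between 16.7% and 20.4% over these classes. Its interval at 100 or more (16 to 25.6%) overlapped that of distant members. Among the 154 distant peaks scoring at least 104 in replicate 2 the CCAAT share was 22.1% (16.3 to 29.3%). Whether the higher share among distant members is also present in replicate 2 thus cannot be told. The PU.1 word GAGGAAGT, also not among the planned words, was present in 9.46% (5.72 to 15.3%) of distant members and 9.43% of other distant peaks. The AP-1 word TGANTCA was present in 8.11% (4.7 to 13.6%) and 9.14%, in the same order. The Kit member printed above holds AGATAA on both strands, and the Myb member holds TGTGGT.

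Exon members made up 2.14% (1.23 to 3.71%) of members, against 2% of peaks 1 to 5 points below and 3.11% of all peaks. Spi1 held more of them than any other gene. Of the 12 members centred in an exon outside promoters, 10 lay wholly inside it. Spi1 held 3 of them, in exon 3 (chr2:91113276-91113425), exon 4 (chr2:91114256-91114405) and exon 5 (chr2:91115416-91115565), each with 100% of its 150 bp in the exon. Exons 3 and 4 are only 191 and 166 bp long. The nearest start by distance was that of Mybpc3, the next gene. Among 280 genes with a replicate 1 exon peak of 140 or more outside promoters, 18 had at least 2 such peaks and 1, Spi1, had 3.

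All 5 exons of Spi1 held a peak in both lists. In replicate 1 the scores were 148 in exon 1, 123 in exon 2, and 150 in exons 3, 4 and 5. The 11 replicate 1 peaks in its introns scored between 67 and 128. In replicate 2 the exon peaks scored 123, 78, 135 and 137 in exons 1 to 4 and higher still in exon 5, and the 2 intron peaks scored 48 and 18. In replicate 2 every exon peak was thus above every intron peak, while in replicate 1 exon 2, at 123, was below the highest intron peak, at 128. The exon 5 member was not overlapped in replicate 2, whose exon 5 peak was centred 220 bp away. All 3 members were fully unique in sequence. The gene itself and DNA copies of its spliced transcript, as sources of reads, cannot be told apart in called peaks.

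**Figure D5:**
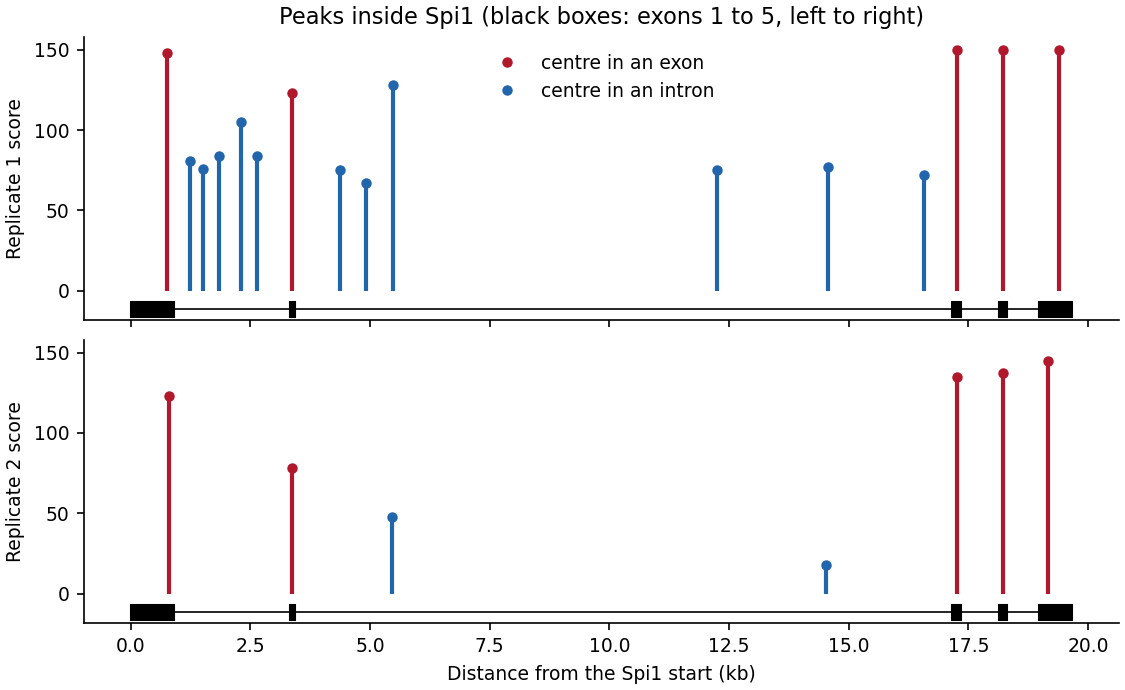
Vertical lines give the score (vertical axis) of each peak centred inside Spi1 against its distance from the start of the gene (horizontal axis, kb), for the replicate 1 list, upper panel, and the replicate 2 list, lower panel. Red lines are peaks centred in 1 of the 5 exons (black boxes) and blue lines peaks in introns; the 3 members are the red lines at 150.

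The other exon members were single. They lay in exon 16 of Atf6 (replicate 2 score 86), exon 20 of Ahi1 (111), exon 33 of Helz (81), exon 22 of Pdzd2, exon 7 of Tmem154 (82), exon 11 of Pbxip1 (109), exon 8 of Btbd19 (111), exon 8 of Tmem184a (96) and exon 4 of Cttnbp2 (80). Those in Ahi1 and Pdzd2 crossed an exon edge, with 56.7% and 64% of the peak inside.

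The 10 members without a replicate 2 overlap all had a replicate 2 peak close by. The nearest centre was 160 to 340 bp away, and all 10 lay inside a replicate 2 hotspot. By distance from a start they were near Hist2h2bb (41 bp), Hdgfl2 (123 bp), Gsk3a (400 bp), Tedc1 (450 bp), Trpv2 (586 bp), Rab40c (657 bp), Mybpc3 (2653 bp, in Spi1), Kif2c (7772 bp), Fcgr1 (35 kb) and Ccr1 (40.2 kb). The Fcgr1 and Kif2c members lay 546 bp and 469 bp from the start of an annotated snRNA gene. The Ccr1 member was 75.3% repeat-masked.

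Members were not spread evenly over the genome. Of 2399 windows of 1 Mb with a peak, 346 held a member and 241 of these held 1. The 18 windows with 4 or more held 125 members. Chromosome 3 had 72 members, 0.472% of its peaks, and chromosome 19 had 41, 0.464%, against 0.0888% for chromosome 14 at the low end.

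The densest stretch was chromosome 3 from 95 to 98 Mb. It held 43 members among 1383 peaks, 3.11%, of which 27 were promoter members, including Zfp687, Ciart, Ensa, Anp32e, Golph3l and the Hist2 genes. A 1-Mb stretch of chromosome 12, with the A530016L24Rik member printed above, held 10 of 359 peaks and chromosome 19 from 29 to 30 Mb, with Jak2, held 6 of 350. These 3 stretches, named with earlier results known, together held 59 members, 10.5%. Chromosome 9 from 21 to 22 Mb, with Dnm2 and Cdkn2d, held 13 of 478 and was chosen after its values were seen.

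The peaks of these stretches had higher median scores than the genome at large. The stretches were chosen with values of these data known, so this is a description and not a separate result. The median replicate 1 score of all peaks was 102, 106 and 100.5 on chromosomes 3, 12 and 19 and 90 on chromosome 9, against 74 over chromosomes 1 to 19. In replicate 2 the medians were 52, 56, 42 and 42.5, against 32. The part that this regional level plays in the members there was not tested. Without the 3 stretches, 501 members were left.

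The spacing of members was also described. None overlapped another, the smallest distance between centres was 180 bp, and 65 members (11.6%) had another within 10 kb. The same counts are not given here for other peaks, so this spacing cannot be called particular to members. The closest, at 180 bp, were in an intron of Lipc, with the same replicate 2 score, and at Hist2h2bb. Genes with at least 3 members within 10 kb of a start were Lmna, Bola1, Hist2h2bb, Hist2h4 and Mybpc3. At Lmna, the lamin A gene, the 3 members lay 56 bp upstream of a start, 2059 bp upstream and 1921 bp downstream of the nearest starts, with replicate 2 scores of 91, 110 and 105. At Mybpc3 they were the Spi1 exon members, and at Bola1 and the histone genes they lay in the chromosome 3 stretch.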

How the data were processed

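Called DNase-seq regions of MEL cells were used. Per the deposited notes, replicate 1 regions were called on 1 alignment merged from 2 libraries and replicate 2 regions on 1 library, and per the labels the build was mm10. Neither the read depth nor the tools for alignment and peak calling are given in the sources used here. Each deposited peak carries the authors' score, a whole number from 1 to 150 whose definition is not given. The deposited hotspots carry −log10 q-values by the convention of their format, which end at 100.

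Exact repeats of a peak were dropped, 67 lines in replicate 1 and 7 in replicate 2. Distances ran from the peak centre to the starts of GENCODE M21 basic protein-coding transcripts, and remaining peaks were placed by their centre in exons, introns or intergenic sequence. Where several replicate 2 peaks overlapped a member, the highest score was used. Motifs were exact words on either strand of the 150 bp of a peak. Uniqueness was the share of 36-bp words found once in the RefSeq GRCm38.p6 sequence, and mitochondrial matches came from BLAST 2.17.0. Gene families were matched by symbol, with kinase genes named Rps6k left out of the ribosomal list. Named were the members with the 20 highest replicate 2 scores, up to 4 genes per list, every gene of the blood and unrelated tissue lists, distant members with the 15 highest scores and the 5 farthest, the first 10 unmatched members, and genes with at least 3 members within 10 kb. A few members that these rules pick are not reported here.

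The code, tested on simulated data, used pysam 0.24.0, numba 0.67.0, scipy 1.17.1, pandas 2.3.3, numpy 2.4.6 and matplotlib 3.10.9 under Python 3.11.15. The members, lists and windows were chosen with earlier results of these data known. No test between samples was possible, and intervals and limits from counts of 0 (3 counts of the total) cover counting error over peaks only.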

Additional observations from a re-analysis of the deposited data

Results flagged for a closer look

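The rule kept to chromosomes 1 to 19, and the replicate 1 list held further peaks at a score of 150 elsewhere. Chromosome X had 21 among 10939 peaks (0.192%), close to the 0.208% of chromosomes 1 to 19, and chromosome Y had 2 among 710. Most of the X peaks were promoter peaks, such as those of Taf1 (replicate 2 score 108), Pin4 (123), Brwd3 (119) and Morf4l2 (116). The peak at Gm21887 near the end of X had a replicate 2 score of 137 and 0% unique 36-bp words, below every member.

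The mitochondrial genome had 9 such peaks among 17, a share of 52.9%, and unplaced contigs had 3 among 535.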

How the results depend on the processing

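Across 190 alternative values, 153 stayed inside the interval of the reported value or within 1.5 times the reported count. This count includes settings that could not change a value and so say nothing on stability. No member was an exact repeat or had under 50% unique words, and leaving out replicate 2 cannot alter results that do not use it. No contrast was tested, so there was no direction to turn round. With peaks up to 1 point (1552 peaks) or up to 5 points (6861 peaks) below 150 taken in, the promoter share was 51.5% and 44.8%, the share over 10 kb 31.6% and 36.4%, and the median replicate 2 score 96 and 83. Those thresholds gave 898 and 3200 genes with a promoter peak and 111 and 243 peaks in the dense stretches, and with those up to 5 points below CCAAT was present in 47.1% of promoter peaks. With starts of all annotated genes the promoter share was 61.8% and the share over 10 kb 18%, with 1 start per gene the share over 10 kb was 30.4%, and beyond 50 kb it was 10.2%. A promoter window of 500 bp gave a promoter share of 53.2%. With an overlap of at least 50% of both peaks 92.1% of members were matched, and 100% lay in replicate 2 hotspots. Leaving out the dense stretches left 0 members there and 7 histone genes with a member; all other shares stayed inside their intervals. With the highest-scoring replicate 2 peaks in place of the members, that is, without replicate 1, CCAAT was present in 70.6% of promoter peaks, against 59.4% without replicate 2. The score in the other list is then a replicate 1 score, so no replicate 2 median was computed. In the middle 75 bp of each promoter member CCAAT was present in 42.1%. Without replicate 2 the overlap and its score have no value and the rest is as reported. No paired analysis was possible because there was 1 group of samples.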
